A study of Mus musculus with 17 samples.

Results

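Coagulation and plasminogen activation genes were followed through 2 kinds of mouse macrophage. The set holds 9 genes of the 24453 gene models measured: F13a1, F3, F5, F7, F10, Thbd, Tfpi, Plau and Plaur, each with 1 row of values. The set was chosen by the level of F13a1, which was higher in the JunKO and JunDKO cells than in their control, and the other 8 genes were added by function. JunKO and JunDKO against Scramble are therefore given for all 9 genes as a description, with no test. The low F13a1 level of Scramble was part of that choice, so F13a1 is also given no test against Scramble in Atf3KO or TGEMs.

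Polyadenylated RNA was sequenced from 13 libraries. Of these, 8 came from immortalized bone marrow-derived macrophages (iBMDMs), male C57Bl/6EiJ marrow cells carrying BRAF(V600E) and Myc, which also expressed Cas9. They received guides against Atf3 (Atf3KO), Jun (JunKO) or Jund (JunDKO) or served as the scramble control (Scramble), with 2 libraries per group and vehicle as treatment in the labels. The Scramble libraries are named for zsGreen in their titles and as a scramble control by genotype. Each virus carried 2 guides per target, and infected cells were sorted by the tagBFP2 reporter. A cloning step is not given in the sources used here. The other 5 libraries came from thioglycollate-elicited macrophages (TGEMs) of mice labelled male and aged 8 weeks in the study's methods, collected 3 days after injection and given PBS vehicle or, for 1 h, the TLR4 ligand Kdo2 lipid A (KLA). There were 1 vehicle and 1 KLA library of C57Bl/6EiJ mice, and 1 vehicle and 2 KLA libraries of Balb/cJ mice. The study's methods call the knockout replicates repeated experiments. Separate cultures or animals are not named in the sources used here, so p-values measure the spread between these libraries, which may be technical.

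Levels are RPKM, reads scaled to exon length and to library size, which can be compared between genes. Differences are log2(RPKM + 1), a scale that understates the change of low genes, with their SE, and group means carry the SD. Depth recovered from the RPKM steps ranged from 1553297 to 18444437 reads per library, and both ends of that range were JunDKO replicates. The targeted RNAs do not check the edits, since a frameshift need not lower RNA. Atf3 RNA was higher in the libraries labelled Atf3KO (154 and 169 RPKM) than in Scramble (80.7 and 77.4 RPKM), and Atf3KO stands for the libraries so labelled. Jun RNA was 26.2 and 20.5 RPKM in JunKO against 17.6 and 18.5 RPKM in Scramble. Jund RNA was 6.94 and 6.07 RPKM in JunDKO against 9.19 and 8.33 RPKM in Scramble. In Atf3KO replicates 1 and 2 Jun RNA was 17.9 and 46.2 RPKM and Jund RNA 22.6 and 83.0 RPKM. The part of these levels in the other Atf3KO values was not tested. All 8 macrophage markers examined were present in both kinds of cell. Atf3KO libraries held reads in 10425 to 10631 models, against 11884 to 12533 in the other iBMDM libraries, although 5 of those 6 were shallower, and the part of this in the Atf3KO values was not tested. TGEM libraries also held 863 to 8676 reads of Xist despite the male label.

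In haemostasis, tissue factor (F3) on a cell surface binds factor VII (F7) and activates factor X (F10), which with factor V (F5) converts prothrombin to thrombin. Tfpi inhibits the tissue factor complex, and thrombomodulin (Thbd) turns thrombin toward activation of protein C. F13a1 encodes the catalytic A subunit of factor XIII, a transglutaminase that cross-links fibrin and is made by platelets, monocytes and tissue macrophages. Urokinase (Plau) cleaves plasminogen to plasmin, which dissolves fibrin, and Plaur is the receptor that holds urokinase at the cell surface. Macrophages express several of these genes and deposit or clear fibrin at sites of inflammation.

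The bases upstream of the start sites of F13a1, F3 and Plaur are shown because Atf3, Jun and Jund are members of AP-1, a factor that binds the letters TGACTCA or TGAGTCA. The runs were read from RefSeq promoters of GRCm38.p6 (mm10), 250 bases 5′ to 3′ on the strand of the gene, and capitals mark matches on either strand to AP-1, to the cyclic AMP response element TGACGTCA or to the PU.1 core GAGGAA. Of the 9 genes, 7 had an entry, and Thbd and Plau did not. AP-1 letters were found for 2 of the 7, F3 and Plaur, and for none of F13a1, F5, F7, F10 and Tfpi.
F13a1, chr13:37050245-37050494, minus strand: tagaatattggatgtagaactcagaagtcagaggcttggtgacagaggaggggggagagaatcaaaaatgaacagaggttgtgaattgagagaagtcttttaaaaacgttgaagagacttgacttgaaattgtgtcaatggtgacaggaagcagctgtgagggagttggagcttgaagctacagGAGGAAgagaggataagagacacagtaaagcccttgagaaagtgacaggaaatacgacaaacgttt
F3, chr3:121723287-121723536, plus strand: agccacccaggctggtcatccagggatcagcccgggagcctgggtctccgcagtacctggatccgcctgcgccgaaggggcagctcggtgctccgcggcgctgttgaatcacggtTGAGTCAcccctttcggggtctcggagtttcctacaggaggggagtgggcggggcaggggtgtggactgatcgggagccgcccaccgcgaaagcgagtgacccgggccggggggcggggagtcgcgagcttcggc
Plaur, chr7:24462233-24462482, plus strand: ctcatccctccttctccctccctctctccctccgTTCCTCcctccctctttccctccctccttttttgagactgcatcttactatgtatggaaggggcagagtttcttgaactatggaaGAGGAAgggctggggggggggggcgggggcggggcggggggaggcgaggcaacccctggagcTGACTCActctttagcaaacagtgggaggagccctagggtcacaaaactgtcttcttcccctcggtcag
The F3 run held 1 AP-1 match that began 135 bases before the start, and the Plaur run held 1 that began 69 bases before it. The F13a1 run held none, and its 1 PU.1 match began 66 bases before the start. A second F13a1 start in the table, 1031 bases from that of the gene model, had no match to any of the 3 motifs. AP-1 letters were present in 4.46% of the 32851 promoters of the same length, the cyclic AMP response element in 1.55% and the PU.1 core in 23.3%. None of the 3 motifs overlapped another in the runs shown. The start of the Plaur run lay 17 bases from the start of the gene model, and those of F13a1 and F3 coincided with it. These matches describe the letters in the window and carry no evidence on binding.

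F13a1 lies on chromosome 13 (36867178 to 37050244, minus strand, GRCm38). It was lowest in Scramble iBMDMs, at 1.22 and 0.609 RPKM (9 and 4 reads). Its level was 31.7 and 23.6 RPKM in Atf3KO, 24.0 and 20.1 RPKM in JunKO and 84.4 and 101 RPKM in JunDKO. Every knockout library was above both Scramble libraries, and the JunDKO libraries were above all others. In TGEMs F13a1 stood between Scramble and the knockouts, at 8.25 RPKM in C57Bl/6EiJ vehicle and 6.41 RPKM in C57Bl/6EiJ KLA. The Balb/cJ libraries held 2.56 RPKM with vehicle and 1.90 and 3.49 RPKM with KLA. By group mean the order was JunDKO, Atf3KO, JunKO, C57Bl/6EiJ vehicle, C57Bl/6EiJ KLA, Balb/cJ KLA, Balb/cJ vehicle and Scramble. Of neighbours in that order, Atf3KO overlapped JunKO, and Balb/cJ vehicle lay within the range of Balb/cJ KLA.

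**Figure D1:**
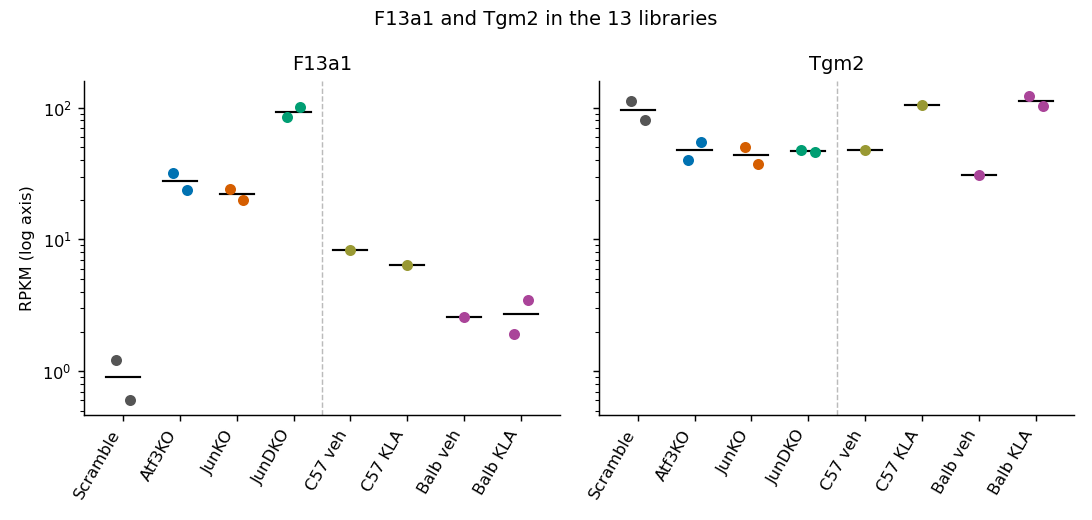
RPKM of F13a1 (left) and Tgm2 (right) on a log axis, 1 point per library, with a bar at the mean of each group, for the 4 iBMDM groups (left of the dashed line) and the TGEM groups (C57, C57Bl/6EiJ; Balb, Balb/cJ; veh, vehicle). F13a1 runs from 0.609 RPKM in a Scramble library to 101 RPKM in a JunDKO library, while Tgm2 stays between 31.0 and 122 RPKM.

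The group means of F13a1 were 27.7 ± 5.72 RPKM in Atf3KO, 22.04 ± 2.78 RPKM in JunKO and 92.6 ± 11.6 RPKM in JunDKO, against 0.912 ± 0.429 RPKM in Scramble (SD, n = 2 per group). The fitted log2 difference from Scramble was 3.91 ± 0.24 for Atf3KO, 3.60 ± 0.24 for JunKO and 5.63 ± 0.24 for JunDKO. Between JunDKO and JunKO the fitted difference was 2.02 ± 0.24. Without Atf3KO replicate 2, which carries a later label date than the other iBMDM libraries, the Atf3KO difference was 4.12. These differences share the Scramble libraries, so the 3 knockouts are not independent of each other.

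F13a1 is also a platelet transcript. Of 6 platelet and megakaryocyte markers, Gp9 and Gp6 were at 0 in all iBMDM libraries. The summed level of the list was 3.94 to 4.49 RPKM in JunDKO, 1.42 to 1.57 RPKM in Atf3KO, 0.215 to 0.633 RPKM in JunKO and 0.190 to 0.429 RPKM in Scramble. Most of the JunDKO sum was Ppbp, a platelet chemokine, at 2.99 and 4.14 RPKM and at 0 in the other iBMDM groups. The part of this list in the F13a1 values was not tested.

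Of the other transglutaminases Tgm2 had the highest level in these cells. It measured 113 and 80.0 RPKM in Scramble, 40.2 and 54.5 RPKM in Atf3KO, 50.3 and 37.6 RPKM in JunKO and 47.5 and 45.9 RPKM in JunDKO. It changed in Atf3KO by -1.01 ± 0.24 on the log2 scale (limma-trend adjusted p = 0.0135) and in JunDKO by -1.01 ± 0.24 (adjusted p = 0.0339), and the JunKO difference of -1.11 ± 0.24 did not pass (adjusted p = 0.186). The Atf3KO call was lost without Atf3KO replicate 1 (limma-trend adjusted p = 0.0573) or Scramble replicate 1 (0.0828), and the JunDKO call was lost without any 1 of its 4 libraries (0.0613 to 0.181). The ratio of F13a1 to Tgm2 within a library went from 0.00761 and 0.0108 in Scramble to 1.78 and 2.20 in JunDKO. Tgm4, a prostate transglutaminase, lay at 1.49 to 7.69 RPKM in iBMDMs and was higher in Atf3KO by 1.37 ± 0.41 (limma-trend adjusted p = 0.0300). Tgm1, Tgm3, Tgm5, Tgm6 and Tgm7 were at or below 0.379 RPKM there.

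Among 10651 other gene models, the 4 whose log2 levels tracked F13a1 most closely over the 13 libraries were Pmvk (Pearson's r = 0.943), Sqle (0.896), Pck2 (0.887) and Ap2a2 (0.885). This ranking is a description over libraries that share cell kind and group. Pmvk and Sqle encode enzymes of cholesterol synthesis, Pck2 the mitochondrial form of phosphoenolpyruvate carboxykinase and Ap2a2 a subunit of the AP-2 clathrin adaptor. Pmvk measured 2.13 and 3.01 RPKM in Scramble against 13.2 and 12.5 RPKM in JunDKO, a far narrower range than that of F13a1. Pck2 measured 4.59 and 5.35 RPKM in Scramble and 32.9 and 31.3 RPKM in JunDKO.

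In the JunDKO cells urokinase was at 14.3 times its Scramble mean, a fold that depends on which Scramble library is used, and its receptor at 0.401 times. In Atf3KO cells Plaur fell, while Plau did not pass the test. Of the 9 genes, 5 reached a mean of 1 RPKM over the iBMDM libraries: F13a1, Thbd, Tfpi, Plau and Plaur. Calls needed a change of at least 2-fold and an adjusted p under 0.05. In Atf3KO 1 of the 4 genes tested, with F13a1 left out, was called, Plaur, where 28.7% of all 10691 models were. In JunKO 0.281% of all models were called and in JunDKO 8.77%, and nothing is read from those shares for the members, since the choice of F13a1 used these comparisons.

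Plau lies on chromosome 14 (20836662 to 20843388, plus strand). Its level was 1.33 and 4.26 RPKM in Scramble (6 and 17 reads) and 1.17 and 1.60 RPKM in Atf3KO. In JunKO it stood at 9.31 and 7.51 RPKM, and in JunDKO at 39.0 and 41.2 RPKM. Scramble and Atf3KO overlapped, JunKO lay above both, and JunDKO lay above all other iBMDM libraries. The log2 difference from Scramble was 1.42 ± 0.36 in JunKO and 3.55 ± 0.36 in JunDKO. Without Scramble replicate 1 these were 0.83 and 2.96, and without replicate 2 they were 2.01 and 4.14. For Atf3KO the difference was -0.56 ± 0.36 and did not pass (limma-trend adjusted p = 0.238). It too depended on the Scramble library and was -1.15 and called without Scramble replicate 1 (adjusted p = 0.0258) and 0.026 without replicate 2.

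Plaur, on chromosome 7 (24462500 to 24475873, plus strand), was the member with the highest level in Scramble, at 36.6 and 29.5 RPKM. It measured 9.18 and 13.8 RPKM in Atf3KO, 20.3 and 17.7 RPKM in JunKO and 14.9 and 11.6 RPKM in JunDKO. All 6 knockout libraries were below both Scramble libraries. In Atf3KO Plaur changed by -1.46 ± 0.25 (limma-trend adjusted p = 0.00344), a call kept in all 14 alternatives, and by -1.73 without the library of the later label date (adjusted p = 0.00826). The differences described for JunKO and JunDKO were -0.76 ± 0.25 and -1.26 ± 0.25. Of 7 neutrophil markers 5 were at 0 in all iBMDM libraries, and the sum, nearly all Mmp8, was 0.283 to 1.03 RPKM in Atf3KO against 8.62 to 11.2 RPKM in Scramble. The part of this list in the Atf3KO values was not tested.

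The median of all models also moved in JunDKO, by 0.24 on the log2 scale from Scramble and 0.23 from JunKO, and by under 0.06 in the other knockouts. Against that median the JunDKO differences were 5.39 for F13a1, 3.32 for Plau and -1.49 for Plaur. Within a library the ratio of Plau to Plaur went from 0.0364 and 0.145 in Scramble to 2.62 and 3.54 in JunDKO, and it was 0.459 and 0.425 in JunKO and 0.128 and 0.116 in Atf3KO. JunDKO was the only iBMDM group with more Plau than Plaur.

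**Figure D2:**
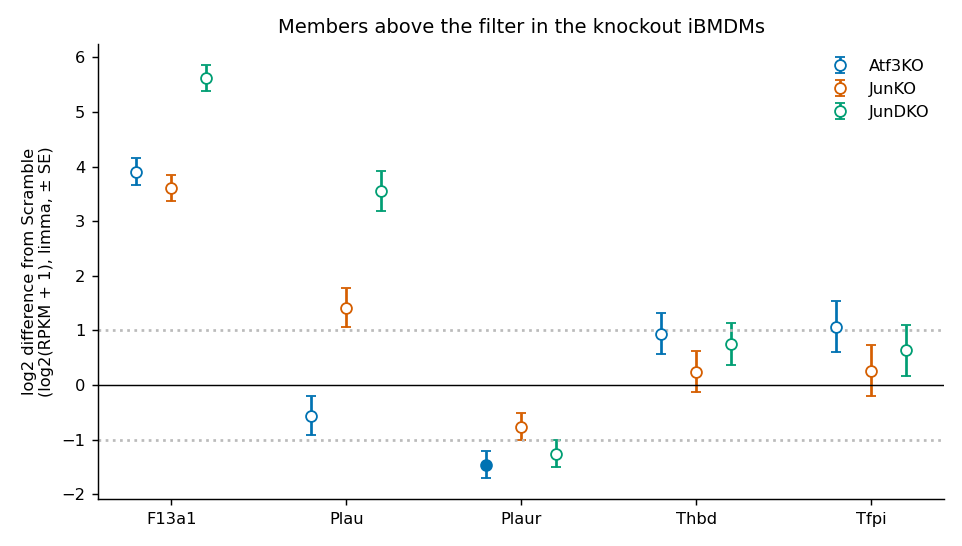
Fitted log2 difference from Scramble (log2(RPKM + 1), limma, ± SE, n = 2 libraries per group) of the 5 members above the filter, with dotted lines at a 2-fold change. The filled point is the Plaur call in Atf3KO, open points are uncalled Atf3KO values and those with no test (F13a1 and all JunKO and JunDKO values), and Plau lies at 3.55 and Plaur at -1.26 in JunDKO.

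The JunDKO and JunKO cells were also compared directly, on libraries that had served in the choice of F13a1. The JunDKO mean of Plau was 4.77 times that of JunKO, with a log2 difference of 2.13 ± 0.36 (limma-trend adjusted p = 0.0101), or 1.91 against the median of all models. This call was lost without any of the 4 libraries, at adjusted p of 0.0975 and 0.113 without JunDKO replicate 1 or 2 and 0.0637 and 0.0940 without JunKO replicate 1 or 2. Plaur differed by -0.49 ± 0.25 (adjusted p = 0.255), Thbd by 0.51 ± 0.38 (adjusted p = 0.432) and Tfpi by 0.37 ± 0.47 (adjusted p = 0.656). Of the 4 genes tested, with F13a1 left out, Plau was the 1 called, where 6.31% of all models were.

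Thbd and Tfpi, which restrain thrombin formation, did not pass in Atf3KO, although some alternatives called them. Thbd, on chromosome 2 (148404471 to 148408188, minus strand), had 1.26 and 0.629 RPKM in Scramble, 2.39 and 3.01 RPKM in Atf3KO, 0.789 and 1.89 RPKM in JunKO and 1.56 and 3.07 RPKM in JunDKO. The Atf3KO and JunDKO libraries lay above Scramble, by 0.94 ± 0.38 (limma-trend adjusted p = 0.0763) in Atf3KO and by 0.75 ± 0.38, untested, in JunDKO. With quantile normalization the Atf3KO difference of Thbd was 1.30 and called (adjusted p = 0.0384). Tfpi, also on chromosome 2 (84432860 to 84474174, minus strand), had 5.60 and 14.2 RPKM in Scramble and 31.0 and 12.8 RPKM in Atf3KO, so these groups overlapped (1.07 ± 0.47, adjusted p = 0.0968). Without Atf3KO replicate 2 the Tfpi difference was 1.68 and called (adjusted p = 0.0464), as it was with a GC correction (1.69, adjusted p = 0.00866). Tfpi stood at 11.9 and 10.2 RPKM in JunKO and 13.04 and 16.2 RPKM in JunDKO, within or close to the Scramble range. Scramble held 9 and 4 reads of Thbd and 16 and 36 of Tfpi, so its levels are imprecise.

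The 4 members that start and carry the cascade were near or at 0 in iBMDMs and fell below the filter. F3 had 1 read in 8 libraries, in Scramble replicate 1, and F7 had 1, in Atf3KO replicate 2. F10 held 14 and 14 reads in Atf3KO (1.19 and 0.721 RPKM), 7 and 2 in JunDKO (1.68 and 0.040 RPKM) and at most 1 in each Scramble and JunKO library. Its read rate in Atf3KO was 8.76 times that in Scramble, with an exact 95% interval of 1.45 to 358 that covers counting error only. F5, on chromosome 1 (164151835 to 164220277, plus strand), had 0.910 and 0.394 RPKM in Scramble, 2.55 and 1.75 RPKM in Atf3KO and 0.317 and 0.473 RPKM in JunKO. It was at 0 reads in both JunDKO libraries, of which replicate 2 was the deepest of the series. With a floor of 3 reads over the group, F5 was at least 32.9-fold lower in JunDKO than in Scramble (18 reads) and at least 19.5-fold lower than in JunKO (10 reads), counting error only. These limits rest on JunDKO replicate 2, since replicate 1 alone gave at least 2.56-fold and 1.51-fold. The F5 read rate in Atf3KO was 3.08 times that in Scramble, with an exact 95% interval of 1.89 to 5.31. With no filter on low values, limma-trend gave F5 in Atf3KO an adjusted p of 0.0193 at a log2 difference of 0.94 ± 0.20, below the 2-fold limit. A gene on the other strand, Gm16548, overlaps F5, and a strand setting of the counting is not given in the sources used here.

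**Figure D3:**
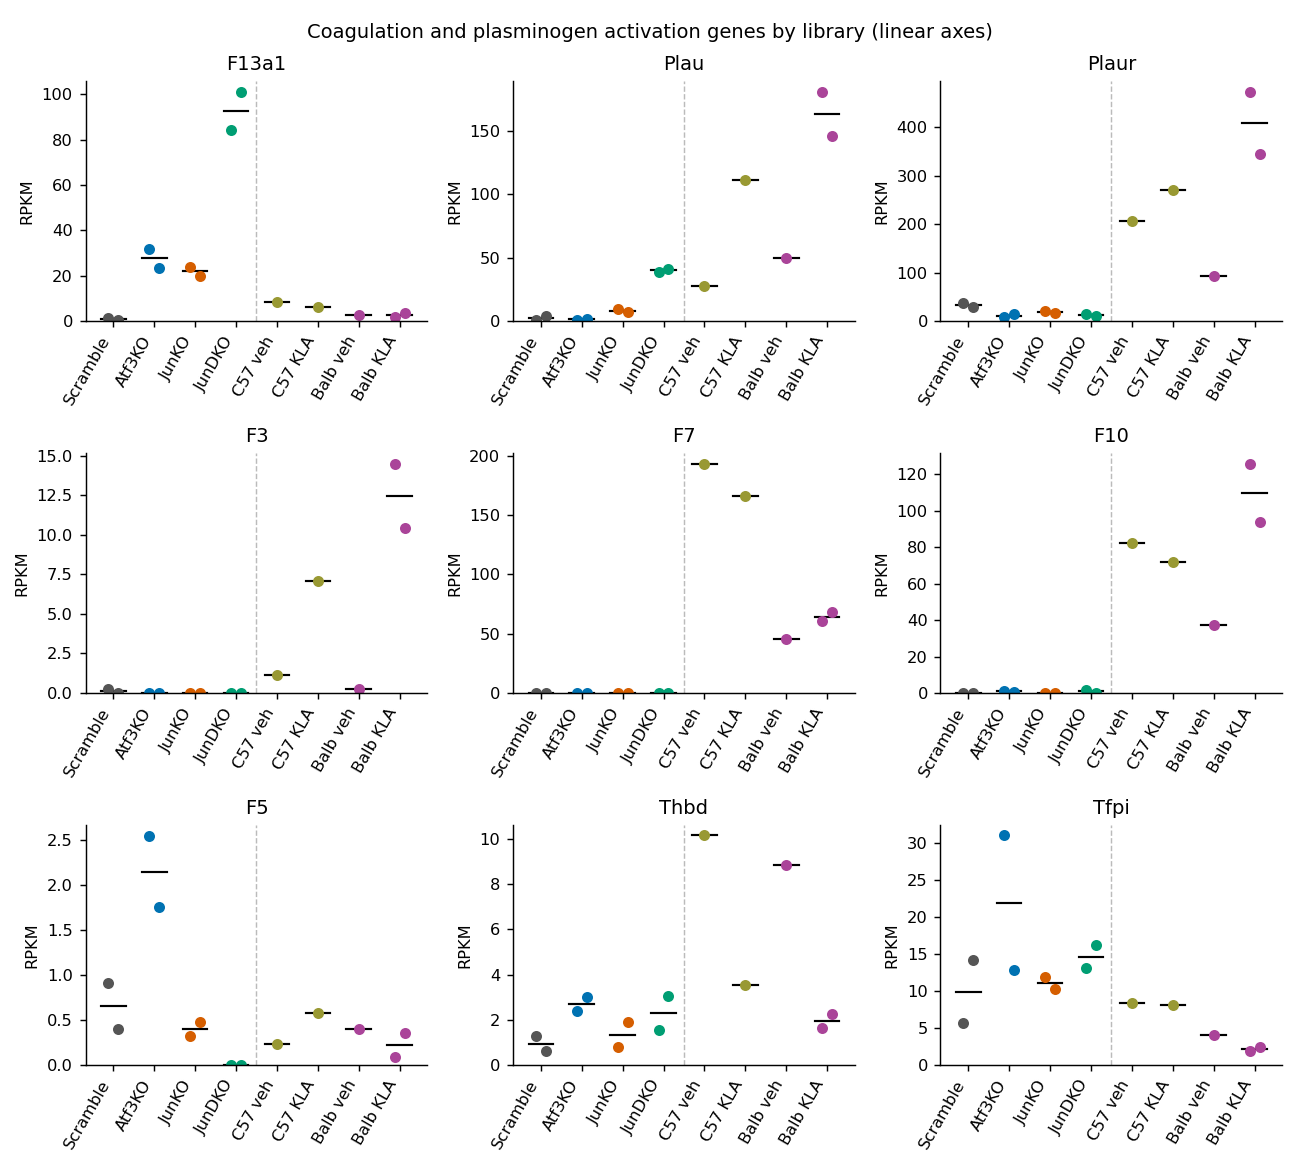
RPKM of the 9 genes by library on linear axes that start at 0, 1 point per library with a bar at the group mean (C57, C57Bl/6EiJ; Balb, Balb/cJ; veh, vehicle; dashed line between iBMDMs and TGEMs). F13a1 peaks in JunDKO at 84.4 and 101 RPKM, Plaur at 344 and 471 RPKM in Balb/cJ KLA, and F7 lies at 45.6 to 193 RPKM in TGEMs against 0 to 0.075 RPKM in iBMDMs.

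Of 40 other coagulation and fibrinolysis genes, 14 were high enough to be tested in iBMDMs, and the 5 called in JunDKO were all lower. The list gave 0 genes higher and 5 lower in Atf3KO with F9 left out, 0 in JunKO and 0 higher and 5 lower in JunDKO, where 28.7%, 0.281% and 8.77% of all models were called. In JunKO 5 of the 14 had an unadjusted p under 0.05 and limma-voom called 1, Procr. The median log2 difference of the 14 was -0.57 in Atf3KO, -0.13 in JunKO and -0.40 in JunDKO, beside 0.052, 0.005 and 0.24 over all models tested. Procr, the endothelial protein C receptor, measured 137 and 121 RPKM in Scramble, 20.5 and 18.4 RPKM in Atf3KO, 52.1 and 44.4 RPKM in JunKO and 4.30 and 2.71 RPKM in JunDKO. Its groups did not overlap and stood in the order Scramble, JunKO, Atf3KO, JunDKO. The log2 difference from Scramble was -4.87 ± 0.22 in JunDKO (limma-trend adjusted p = 1.33e-05) and -2.67 ± 0.22 in Atf3KO (adjusted p = 2.43e-04), kept in all alternatives, and -1.40 ± 0.22 in JunKO (adjusted p = 0.0598).

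Of the 11 fibrinolysis genes in the list 5 were tested, and 4 fell in Atf3KO and 3 in JunDKO, beside the same 28.7% and 8.77% of all models called in either direction. Anxa2 and S100a10 encode annexin A2 and its partner p11, which bind plasminogen at the cell surface. Anxa2 measured 1068 and 881 RPKM in Scramble, 914 and 812 RPKM in JunKO and 207 and 179 RPKM in JunDKO, where it changed by -2.33 ± 0.18 (limma-trend adjusted p = 1.93e-04). S100a10 measured 416 and 369 RPKM in Scramble, 376 and 329 RPKM in JunKO and 188 and 130 RPKM in JunDKO (-1.32 ± 0.22, adjusted p = 0.00745), a call lost without Scramble replicate 1 (0.0616) or JunDKO replicate 2 (0.0752). Serpine2, or protease nexin 1, which inhibits thrombin and urokinase, went from 10.1 and 9.43 RPKM in Scramble to 0 and 0.212 RPKM in JunDKO (-3.29 ± 0.27, adjusted p = 2.81e-04).

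In Atf3KO the log2 differences were -1.10 for Anxa2, -1.56 for S100a10, -1.91 for Serpine2 and -1.38 for Plgrkt, a plasminogen receptor (limma-trend adjusted p = 0.00282, 0.00186, 0.00182 and 0.0109). The Anxa2 value fell short of 2-fold without Scramble replicate 1 (-0.96), and the Plgrkt call was lost without either Scramble library (adjusted p = 0.0604 and 0.0556) or Atf3KO replicate 2 (-0.85). F9, or factor IX, had 5.14 and 2.43 RPKM in Atf3KO and 0 and 0.671 RPKM in Scramble, a log2 difference of 1.83. It reached the filter only through Atf3KO (mean 0.768 RPKM in the other iBMDM libraries) and is given no test. Vwf, von Willebrand factor, differed by -1.31 in JunDKO (adjusted p = 0.0170) and was not called without any 1 of the 4 libraries (0.0756 to 0.0931). Plasminogen itself (Plg) was at 0 in all 13 libraries.

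Between JunDKO and JunKO, Procr (-3.47) and Anxa2 (-2.16) were lower in JunDKO in all 15 alternatives (limma-trend adjusted p = 9.46e-05 and 3.32e-04). Serpine2 (-1.64) and S100a10 (-1.17) were lower and Vkorc1, the vitamin K epoxide reductase, was higher (1.48), at adjusted p of 0.00880, 0.0168 and 0.0124. These 3 calls were sensitive to single libraries. Vkorc1 lost its call without any 1 of the 4 libraries (0.0622 to 0.125), S100a10 without JunDKO replicate 2 (0.144) or JunKO replicate 1 (0.119) or 2 (0.0839), and Serpine2 without JunDKO replicate 1 (0.0716) or JunKO replicate 2 (0.0516). The median of the 14 genes was -0.24, beside 0.23 over all models.

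**Figure D4:**
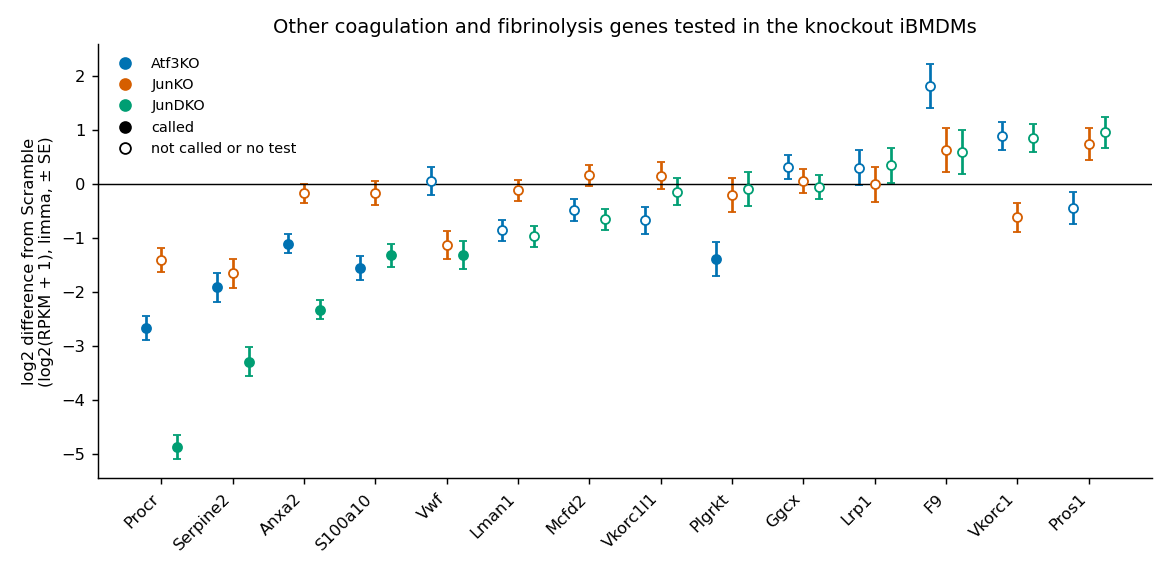
Fitted log2 difference from Scramble (log2(RPKM + 1), limma, ± SE, n = 2 libraries per group) of the 14 other coagulation and fibrinolysis genes tested in iBMDMs, ordered by the JunDKO value, with filled points for called genes and open points for the rest, F9 in Atf3KO included, which has no test. Procr lies at -4.87 in JunDKO and -2.67 in Atf3KO, and no JunKO point is filled.

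Vehicle TGEMs were set against Scramble iBMDMs to see where each gene is expressed. TGEMs expressed F7 and F10 at high levels, whereas Scramble iBMDMs had 0 reads of F7 and 1 of F10. Plau, Plaur and Thbd were higher in TGEMs too, and Tfpi did not pass. Of the 4 genes beside F13a1 that had reached the filter in iBMDMs, these 3 were called, where 36.4% of all 10929 models were called in either direction. F3, F7 and F10 reached the filter only through TGEM libraries, so they are described with no test and are not counted. Cell kind, handling and label date cannot be told apart in this comparison. With the C57Bl/6EiJ vehicle library alone, the strain of the iBMDMs, the differences were 7.60 for F7, 6.26 for F10, 3.04 for Plau, 2.61 for Plaur and 2.54 for Thbd. A fit with that 1 library takes its spread from the other groups. The median of all models moved by -0.32, so each positive difference below would be that much larger against it.

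F7 and F10 lie side by side on chromosome 8 on the plus strand, F7 at 13026034 to 13035805 and F10 at 13037308 to 13056676, with 1502 bases between them. In vehicle TGEMs F7 measured 193 RPKM in C57Bl/6EiJ and 45.6 RPKM in Balb/cJ. Its read rate over both libraries was at least 375-fold higher than in Scramble, with 3 reads over the Scramble group as the floor. The limit was 432-fold for the C57Bl/6EiJ library and 102-fold for the Balb/cJ library. F10 measured 82.5 and 37.1 RPKM, and its read rate was 730 times that of Scramble with an exact 95% interval of 131 to 28836, counting error only. The fitted log2 differences of F7 and F10 were 6.57 ± 0.18 and 5.69 ± 0.40 (SE). The fitted values of such genes depend on the pseudocount.

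Plau measured 27.7 and 49.5 RPKM in C57Bl/6EiJ and Balb/cJ vehicle TGEMs, a log2 difference of 3.44 ± 0.34 from Scramble (limma-trend adjusted p = 9.05e-05). Plaur reached 206 and 93.6 RPKM (2.05 ± 0.25, adjusted p = 2.93e-04), and Thbd 10.2 and 8.85 RPKM (2.45 ± 0.33, adjusted p = 4.6e-04). The 2 vehicle TGEM libraries were above both Scramble libraries for each of the 3 genes. The F13a1 difference, described with no test, was 1.60 ± 0.28, and it was 0.91 without the C57Bl/6EiJ vehicle library and 2.29 without the Balb/cJ one. Tfpi at 8.41 and 4.04 RPKM overlapped Scramble, as did F3 at 1.13 and 0.229 RPKM. The JunDKO level of Plau, 39.0 and 41.2 RPKM, lay between the 2 vehicle TGEM libraries.

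Of the 40 other pathway genes 16 were tested here, and beside Serpine2 2 were higher in TGEMs and 4 lower, where 36.4% of all models were called. Pros1, or protein S (1.96), and Vwf (1.66) were higher, and Procr (-3.44), Lman1 (-1.85) and Anxa2 (-1.29) were among the lower (limma-trend adjusted p = 3.41e-04, 2.34e-04, 1.16e-05, 3.07e-04 and 5.94e-04). Serpine2 (-3.18) reached the filter only through Scramble and is given no test here. Anxa2 fell short of 2-fold without the Balb/cJ vehicle library (-0.71) and with equal library medians (-0.95). Lman1 encodes a cargo receptor for factors V and VIII. The median difference of the 16 was 0.035. TGEM libraries held markers of other cells: the summed level of 4 fibroblast and mesothelium markers was 15.7 to 30.4 RPKM, of 4 B cell markers 10.1 to 23.9 RPKM and of 3 mast cell markers 1.78 to 13.2 RPKM, and in iBMDMs these sums were at most 0.488 RPKM. Their part in the TGEM levels was not tested, and fewer cells of a type and less RNA per cell cannot be told apart in bulk samples.

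After 1 h of KLA, RNA of tissue factor and urokinase was higher in TGEMs and RNA of thrombomodulin lower. F3 went from 1.13 to 7.08 RPKM in C57Bl/6EiJ and from 0.229 to 14.5 and 10.4 RPKM in Balb/cJ. Plau rose from 27.7 to 111 RPKM and from 49.5 to 180 and 146 RPKM. Thbd fell from 10.2 to 3.56 RPKM and from 8.85 to 1.64 and 2.25 RPKM. For each of these 3 genes the vehicle and KLA libraries did not overlap and moved the same way in all 3 KLA libraries. F3 reached the filter of 1 RPKM only through its KLA libraries and is described with no test. Beside it Plau and Thbd were the called members, 2 of 7 tested, where 1.53% of all 10357 models were called. With no filter neither was called (limma-trend adjusted p = 0.0721 for Plau and 0.202 for Thbd).

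The fitted log2 difference, with strain as a covariate, was 2.79 ± 0.38 for F3 (3 KLA and 2 vehicle libraries), 1.81 ± 0.26 for Plau (limma-trend adjusted p = 0.0197) and -1.55 ± 0.26 for Thbd (adjusted p = 0.0348). The median of all models moved by -0.15, and against it these were 2.93, 1.96 and -1.41. The fit had 2 residual degrees of freedom and in simulated data made more false calls than the adjusted p states, as did the strain comparison, and each call was lost in some alternatives, 6 of 14 for Plau and 11 for Thbd. Without the Balb/cJ vehicle library, which rests on 2342456 reads, the limma-trend adjusted p was 0.317 for Plau and 0.460 for Thbd, and without Balb/cJ KLA replicate 1 it was 0.101 and 0.193. F3 in the Balb/cJ vehicle library was a single read. Plau was also not called when the KLA or the vehicle library of C57Bl/6EiJ was left out (0.121 and 0.124), nor Thbd without those (0.0797 and 0.0786) or Balb/cJ KLA replicate 2 (0.0648). Within the pair of libraries of each label date, C57Bl/6EiJ and Balb/cJ replicate 1, the changes were 1.92 and 3.65 for F3, 1.97 and 1.84 for Plau and -1.29 and -1.90 for Thbd, and with label date in place of strain the limma-trend adjusted p was 0.0702 for Plau and 0.167 for Thbd.

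Plaur went from 206 to 271 RPKM in C57Bl/6EiJ and from 93.6 to 471 and 344 RPKM in Balb/cJ. KLA libraries were above vehicle libraries, and the difference of 1.37 ± 0.41 did not pass (limma-trend adjusted p = 0.215), although limma-voom called it (adjusted p = 0.0170). F10 went from 82.5 to 72.1 RPKM and from 37.1 to 125 and 93.8 RPKM (0.79 ± 0.41, adjusted p = 0.408), and F7 from 193 to 166 RPKM and from 45.6 to 60.6 and 68.2 RPKM (0.19 ± 0.28, adjusted p = 0.786). F13a1 (-0.13 ± 0.29, adjusted p = 0.863) and Tfpi (-0.40 ± 0.27, adjusted p = 0.503) did not pass. F5 stayed between 0.086 and 0.581 RPKM in all TGEM libraries and was not tested.

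Of the 40 other pathway genes 15 were tested with KLA, and their median difference was 0.076, beside -0.15 over all models. The fibroblast and mesothelium sum was 22.3 RPKM with KLA and 23.7 RPKM with vehicle in C57Bl/6EiJ, and 15.7 to 29.9 RPKM against 30.4 RPKM in Balb/cJ. The sum of the 7 neutrophil markers was lower in every KLA library, at 5.16 against 13.8 RPKM in C57Bl/6EiJ and 3.10 to 10.8 against 20.3 RPKM in Balb/cJ. Most of it was Mmp8, while Ly6g and Camp were at 0 in all TGEM libraries. The part of these lists in the changes of F3, Plau and Thbd was not tested.

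**Figure D5:**
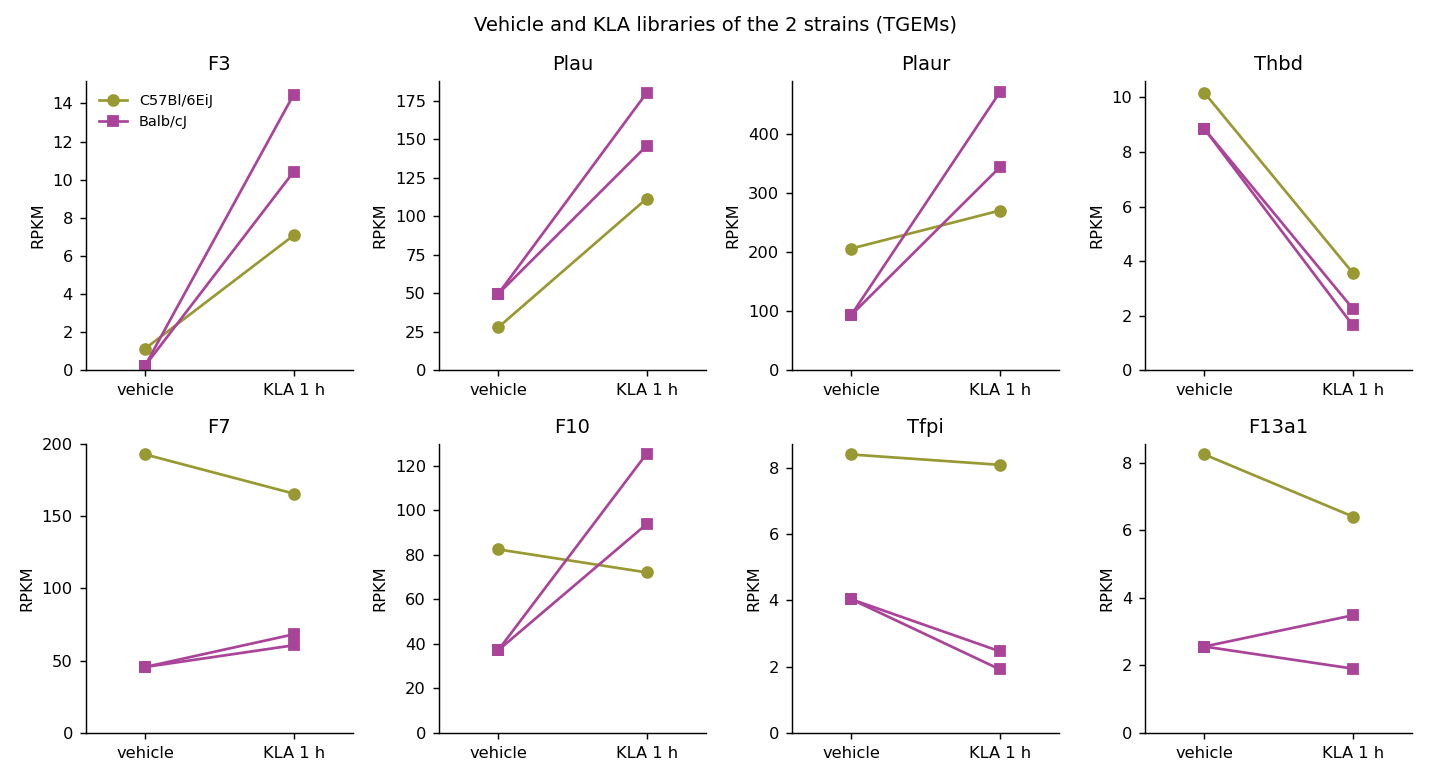
RPKM of 8 genes in TGEMs on linear axes that start at 0, with a line from the vehicle library of each strain to each of its KLA libraries (circles, C57Bl/6EiJ, 1 line; squares, Balb/cJ, 2 lines that share a vehicle library). F3 and Plau lie higher and Thbd lower with KLA on all 3 lines, while F10 goes from 82.5 to 72.1 RPKM in C57Bl/6EiJ and from 37.1 to 125 and 93.8 RPKM in Balb/cJ.

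Between strains F7 was the member that differed. It measured 193 and 166 RPKM in C57Bl/6EiJ TGEMs and 45.6, 60.6 and 68.2 RPKM in Balb/cJ, and the strains did not overlap. The log2 difference of Balb/cJ from C57Bl/6EiJ was -1.65 ± 0.28 (3 against 2 libraries, limma-trend adjusted p = 0.0360). It was the 1 member called of 8 tested, where 2.31% of all models were. The F7 call did not hold on leaving out Balb/cJ KLA replicate 1 (adjusted p = 0.191), the Balb/cJ vehicle (0.293), the C57Bl/6EiJ KLA (0.104) or the C57Bl/6EiJ vehicle library (0.261), with values from -2.06 to -1.35, and was also lost in 2 of the 8 other alternatives. Its neighbour F10 did not pass (-0.15 ± 0.41, adjusted p = 0.858), and the ratio of F10 to F7 within a library was 0.428 and 0.435 in C57Bl/6EiJ and 0.814, 2.07 and 1.38 in Balb/cJ. Strain and label date cannot be told apart, and reads of Balb/cJ mice were aligned to a genome of that strain, whose part in these values was not tested.

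F13a1 and Tfpi were also lower in every Balb/cJ library than in both C57Bl/6EiJ libraries without passing. F13a1 differed by -1.18 ± 0.29 (limma-trend adjusted p = 0.0841), and was called by limma-voom (-1.49, adjusted p = 0.0208) and by limma-trend without Balb/cJ KLA replicate 2 (-1.37, 0.0495). The platelet list summed to 0.327 to 1.28 RPKM in Balb/cJ and 0.579 to 1.80 RPKM in C57Bl/6EiJ, with Ppbp and Gp9 at 0 in all TGEM libraries. The sum of 3 markers of resident peritoneal macrophages (Gata6, Timd4 and Icam2) was 5.34 to 6.09 RPKM in Balb/cJ and 10.3 to 10.4 RPKM in C57Bl/6EiJ, where Timd4 was at 0. The part of these lists in the strain differences of F7, F13a1 and Tfpi was not tested. Tfpi measured 8.41 and 8.09 RPKM in C57Bl/6EiJ and 4.04, 1.92 and 2.46 RPKM in Balb/cJ (-1.25 ± 0.27, limma-trend adjusted p = 0.0611), and it was called with a GC correction (-1.60, adjusted p = 0.031). The differences of Plau (0.65 ± 0.26, adjusted p = 0.213), Thbd (-0.44 ± 0.26, adjusted p = 0.361), Plaur (-0.16 ± 0.41, adjusted p = 0.851) and F3 (0.07 ± 0.38, adjusted p = 0.929) were smaller. Of the other pathway genes 15 were tested, with a median of 0.021, and Mcfd2, the partner of Lman1 in factor V and VIII transport, was called lower in Balb/cJ (-1.49 ± 0.26, limma-trend adjusted p = 0.0373), a call lost without any library but Balb/cJ KLA replicate 2 (0.113 to 0.293).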

How the data were processed

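PolyA RNA-seq of 13 libraries was analysed, and 4 GRO-seq samples were not analysed here. The authors aligned reads with STAR to mm10, or to a Balb/cJ genome, and deposited RPKM over exons of each gene model, computed with HOMER per the file headers. Versions are not given in the sources used here. Depth, and the whole reads behind each RPKM value, were recovered from the RPKM steps (100.0% of precise values up to 50 reads were whole, within the larger of 0.05 reads and the rounding of the value). Testing used limma-trend (limma 3.58.1, R 4.3.3) on log2(RPKM + 1), for models whose mean in the fit reached 1 RPKM. All 8 iBMDM libraries entered 1 fit with group as the term, all 5 TGEM libraries another with treatment and strain, and all 13 a fit for TGEMs against Scramble. P-values were two-sided, adjusted by Benjamini-Hochberg over all models tested, and calls needed 0.05 and 2-fold, the limits in the study's methods. The authors tested unnormalised reads with edgeR, which was not used here. The fits were tested on simulated data, where more calls were false than the adjusted p states, most so in the TGEM fit. Intervals and floors (3 reads over a group) cover counting error only. Genes whose mean reached 1 RPKM only through the group where they were higher were described with no test. All 9 members were named, called genes of a list of 40 pathway genes up to 6 per comparison by size, and the models most like F13a1 by rank, up to 5 (at least 200 exonic bases). Some items that these rules name are not reported here. Alternatives were other pseudocounts (0.25 and 5), no filter, equal library medians, quantile normalization, a 16 RPKM minimum, limma-voom, a GC correction (values for 99.0% of models), leaving out each library, a replicate block, the compared groups alone, no Atf3KO libraries and label date in place of strain. Members, lists and tests were chosen with earlier results of these data known. No 2 libraries held identical values (0 pairs). Tables and plots were made with matplotlib 3.10.9, scipy 1.17.1, pandas 2.3.3 and numpy 2.4.6 under Python 3.11.15.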

Additional observations from a re-analysis of the deposited data

Results flagged for a closer look

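F10, F7 and F5 went opposite ways with KLA in the 2 strains in every library, a difference that was not tested. F10 changed by -0.19 on the log2(RPKM + 1) scale in C57Bl/6EiJ and by 1.73 and 1.32 in the Balb/cJ KLA libraries, so the Balb/cJ mean exceeded the C57Bl/6EiJ value by 1.72. F7 changed by -0.22 in C57Bl/6EiJ and by 0.40 and 0.57 in Balb/cJ, 0.71 apart. F5 changed by 0.35 in C57Bl/6EiJ and by -0.37 and -0.06 in Balb/cJ, a difference of -0.57, on 7 to 20 reads per library. Both Balb/cJ changes share the vehicle library, which had 2342456 reads and held 233 reads of F10, 197 of F7 and 7 of F5, and C57Bl/6EiJ has 1 library per treatment.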

How the results depend on the processing

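The Plaur call in Atf3KO kept its direction and passed in all 14 alternatives. Between JunDKO and JunKO, Plau was the 1 member called of the 4 tested, and its call was lost when any library was left out. For KLA, F3 has no test and is left out here. Neither Plau nor Thbd was called with no filter on low values or with label date in place of strain. Plau alone was called with a pseudocount of 5, equal library medians, quantile normalization or a minimum of 16 RPKM. Limma-voom called Plau, Thbd and Plaur. With a library left out, Plau was called only without Balb/cJ KLA replicate 2, and Thbd was never called. Between strains the number of members called was 1. It became 0 with no filter or quantile normalization, 2 with limma-voom or a GC correction, and 0 to 2 with a library left out. In Atf3KO 1 to 2 members were called, with F13a1, which has no test there, left out. Between TGEMs and Scramble the calls of Plau and Plaur were kept in all 13 alternatives, and that of Thbd was lost with a minimum of 16 RPKM. Some uncalled values changed sign. For KLA, F13a1 became 0.00432 with equal library medians and 0.00895 with quantile normalization. Between strains, F3 became -0.21 with a pseudocount of 0.25 and -0.12 with the GC correction, under which F10 became 0.011. With a library left out, Plau in Atf3KO ranged from -1.15 to 0.026, Thbd in JunKO from -0.099 to 0.59 and Tfpi in JunKO from -0.34 to 0.87. For KLA the ranges were -0.32 to 0.020 for F13a1, -0.22 to 0.49 for F7 and -0.19 to 1.52 for F10. Between strains they were -0.79 to 0.72 for F3, -1.13 to 0.58 for F10 and -1.13 to 0.57 for Plaur. Between TGEMs and Scramble Tfpi ranged from -1.14 to 0.061. The causes were not tested.

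The deviations of same-numbered libraries correlated at 0.185 to 0.225 among Scramble, JunKO and JunDKO, which share a label date, and at -0.215 to -0.12 between these and Atf3KO. With 2 libraries per group, and no label that ties a number to a batch or culture, the numbers were not taken as pairs. With the replicate block Plaur was still the only tested member called in Atf3KO. Plau between JunDKO and JunKO remained at 2.13 (limma-trend adjusted p = 0.0168). Tgm2 in JunDKO lost its call under the block (adjusted p = 0.0518).

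Over all models the number called ranged from 1339 to 3462 (3068 in the report) in Atf3KO, 14 to 77 (30) in JunKO, 409 to 1061 (938) in JunDKO, 228 to 814 (675) between JunDKO and JunKO, 28 to 310 (158) for KLA, 32 to 584 (239) between strains and 2170 to 4376 (3980) between TGEMs and Scramble. With equal library medians the share of calls that were higher went from 54.8% to 31.1% in JunDKO, 47.6% to 26.6% between JunDKO and JunKO, 37.2% to 48.7% between strains and 34.3% to 50.0% between TGEMs and Scramble. Depth limits the Scramble levels of F13a1 (9 and 4 reads), F5 (13 and 5), Plau (6 and 17) and Thbd (9 and 4).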
